A study of Mus musculus with 18 samples.

Results

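The transcriptional effect of Gαq overexpression was measured in left ventricle of mice that all ate ertugliflozin (ERTU). The comparison takes the 4 Gαq ERTU libraries and the 5 wild-type (WT) ERTU libraries, 9 of the 18 libraries of the series, chosen by genotype and diet labels and by no measured value. The mice were male and on the FVB/N background, and the Gαq mice carried a transgene for cardiac-specific overexpression of Gαq, with WT littermates as controls. Both groups received chow with 0.5 mg ertugliflozin per g for 16 weeks, from an age of 4 weeks until sacrifice at 20 weeks. The remaining libraries were 4 WT and 5 Gαq hearts on control diet (CD), a chow without drug, and their values are set beside those on ERTU. The sources used here do not name the promoter of the transgene. Library numbers run across the series in the count table and were not linked to the numbers in the sample titles. Values per library are listed throughout for WT ERTU 11, 12, 13, 14 and 15 and then for Gαq ERTU 16, 17, 18 and 20.

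Gαq, encoded by Gnaq, is the α subunit of a heterotrimeric G protein. Receptors for angiotensin II, endothelin and α1-adrenergic agonists act through it in cardiomyocytes. It activates phospholipase C-β, which makes inositol trisphosphate and diacylglycerol and so acts on calcium release and protein kinase C. Persistent Gαq signaling is known for hypertrophy, a return of fetal cardiac genes and heart failure. Ertugliflozin inhibits SGLT2, the sodium-glucose cotransporter encoded by Slc5a2, which reabsorbs glucose in the kidney.

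Read-pair counts of nuclear-encoded genes totalled 16075634 to 18834963 in the WT ERTU libraries and 16481268 to 20647195 in the Gαq ERTU libraries, and the difference of the means was within the spread between libraries (2-sided exact permutation test, p = 0.762). Values per library are given as CPM, read-pair counts scaled to library size with the trimmed mean of M-values (TMM). Pearson correlations of log2 CPM across genes were 0.973 to 0.987 within WT ERTU, 0.975 to 0.988 within Gαq ERTU and 0.959 to 0.981 between the genotypes. The 10 genes of the ventricular cardiomyocyte list summed to 72047 to 108022 CPM in WT ERTU and 74683 to 102593 CPM in Gαq ERTU. Cardiomyocyte markers were thus high in every library, but this sum does not separate ventricle from atrium. The lowest sums of their groups were those of WT ERTU 14 and Gαq ERTU 20. Atrial markers varied far more, from 11.4 to 335 CPM in WT ERTU and from 80.2 to 575 CPM in Gαq ERTU, with the highest sums in WT ERTU 14 and Gαq ERTU 20. Counts of called genes are therefore also given without these 2 libraries, an alternative chosen after seeing the data. In bulk tissue, fewer cells of a type and less RNA per cell cannot be told apart.

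The overexpressed gene was checked first. Gnaq (ENSMUSG00000024639, chromosome 19, 16132831 to 16387463, GRCm38) was at 229.7, 68.6, 141, 72.1 and 45.5 CPM in WT ERTU and at 2392, 5207, 2236 and 3031 CPM in Gαq ERTU. The lowest Gαq ERTU library, number 18, was well above the highest WT ERTU library, number 11. The mean log2 CPM differed by 5.01, a 32.3-fold rise (2-sided exact permutation test over 126 splits, p = 0.0159, the smallest possible with 4 against 5). The counts do not tell transgene reads from those of the mouse gene itself. Slc5a2, the gene for the drug's target, had 1 to 3 reads in each of the 9 libraries and was not tested.

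The comparison asked which genes differed between the genotypes while both received the drug. Of 16270 genes tested, 1330 (8.17%) had an adjusted p under 0.05 in edgeR's quasi-likelihood test and are called here. Of these, 640 were higher (3.93% of the genes tested) and 690 were lower (4.24%) in Gαq ERTU. The changes upward were larger, with a median log2 fold change of 0.91 among called genes that rose and -0.57 among those that fell. A rise of at least 1 on the log2 scale, a doubling, was seen for 286 called genes, and a fall of that size for 126. Changes under 1.5-fold made up 534 of the calls (40.2%). The median log2 fold change over all tested genes was -0.00067. The 4 and 5 values did not overlap for 1772 genes (10.9%), of which 1118 were called, while 212 called genes had overlapping values. The number called ran from 946 without Gαq ERTU 18 to 1696 without WT ERTU 14, and was 1168 without both WT ERTU 14 and Gαq ERTU 20.

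**Figure D1:**
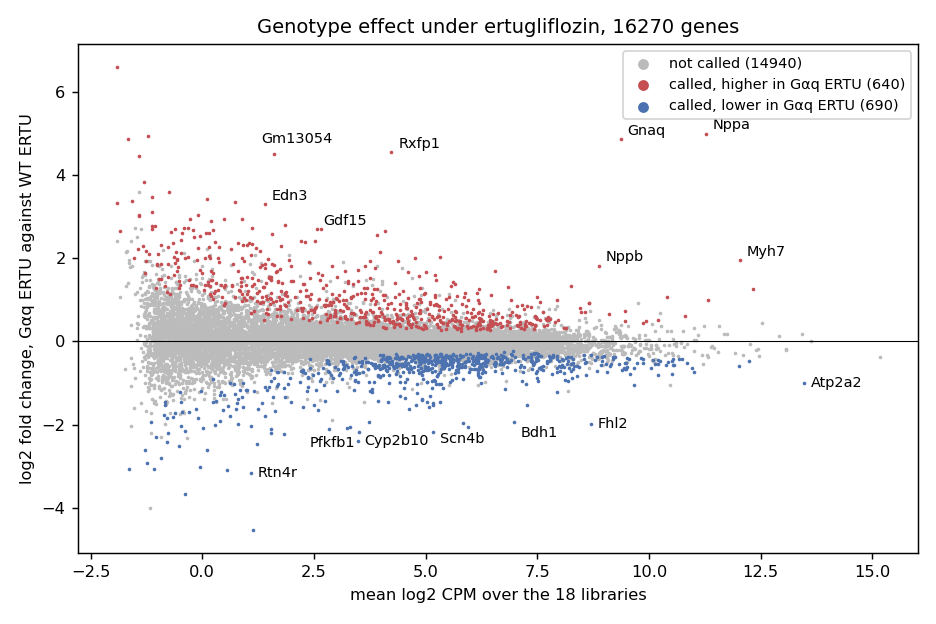
Each point is 1 of 16270 tested genes, with its mean log2 CPM over the 18 libraries on the horizontal axis and its log2 fold change, Gαq ERTU against WT ERTU, on the vertical axis. Red points are the 640 genes called higher, blue points the 690 called lower, and the rises reach further from 0 than the falls.

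Besides Gnaq, the largest rises among called genes with non-overlapping groups and a mean log2 CPM of at least 1 were those of Nppa, Rxfp1, Gm13054, Edn3, Npy4r, Gm40649, Gdf15, Ramp1 and Gm31659, between 2.64 and 4.99 on the log2 scale. Rxfp1 (ENSMUSG00000034009, chromosome 3, 79641611 to 79737880) encodes a receptor for the peptide hormone relaxin, and was at 3.12, 2.01, 5.32, 4.61 and 3.16 CPM in WT ERTU and 59.95, 145, 76.4 and 60.4 CPM in Gαq ERTU. Every Gαq ERTU library was far above every WT ERTU library (log2 fold change 4.54 ± 0.30, SE, adjusted p = 1.95e-08). The change on CD was 4.69 (adjusted p = 4.31e-08). Edn3, Ramp1 and Npy4r encode a ligand or receptor components as well. Edn3 encodes endothelin 3, a ligand of receptors that couple to Gαq, and stood at 0.6596, 0.613, 0.603, 1.84 and 0.193 CPM in WT ERTU and 5.48, 10.5, 7.795 and 7.67 CPM in Gαq ERTU. The groups were well apart (log2 fold change 3.29 ± 0.33, SE, adjusted p = 5.71e-06), although the WT ERTU values rest on 3 to 35 reads per library. Ramp1 (ENSMUSG00000034353, chromosome 1, 91179822 to 91225196) encodes the protein that pairs with the calcitonin receptor-like receptor to bind calcitonin gene-related peptide, and was at 3.298, 3.57, 1.59, 2.52 and 1.42 CPM and at 19.01, 12.1, 15.99 and 17.3 CPM (log2 fold change 2.69 ± 0.23, SE, adjusted p = 7.55e-07). Npy4r, the gene for a receptor of pancreatic polypeptide, was at 0.4797, 1.23, 0.933, 0.4195 and 3.41 CPM and at 6.64, 14.97, 7.57 and 5.79 CPM (log2 fold change 2.78 ± 0.46, SE, adjusted p = 0.000647). In WT ERTU it was highest in library 15, still below every Gαq ERTU library. Gm40649 and Gm31659 are annotated as long intergenic noncoding RNAs without a described role. Gm13054 lies on the strand opposite to Nppa and overlaps it, and the authors describe the counted pairs as "same strand" without saying whether the libraries mark strand, so its rise of 4.51 cannot be told apart from that of Nppa.

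The smallest p-values among rising genes were those of Gm13054, Rxfp1, Nppa, Ube2ql1 and Gm39214. Ube2ql1, which encodes a protein of the ubiquitin-conjugating enzyme family, was at 6.72, 6.52, 6.53, 5.98 and 5.35 CPM in WT ERTU and at 16.8, 19.1, 15.03 and 16.7 CPM in Gαq ERTU. The rise was moderate but the libraries of each group lay close together (log2 fold change 1.44 ± 0.11, SE, adjusted p = 1.33e-07). Gm39214, a long intergenic noncoding RNA, rose by 1.56.

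Large falls among called genes with non-overlapping groups included those of Rtn4r, Gm29040, Cyp2b10, Gm19461, Clcn1, Scn4b, Pfkfb1, Prr33 and Acsm5, between -3.16 and -2.07. Clcn1, which encodes a voltage-gated chloride channel, was at 4.56, 7.19, 6.97, 3.46 and 6.12 CPM and at 0.853, 1.22, 1.13 and 1.61 CPM (log2 fold change -2.21 ± 0.38, SE, adjusted p = 0.00101). Acsm5, a gene for a mitochondrial acyl-CoA synthetase of medium-chain fatty acids, was at 29.4, 22.7, 21.5, 34.6 and 18.9 CPM and at 6.09, 3.603, 6.84 and 7.54 CPM (log2 fold change -2.07 ± 0.36, SE, adjusted p = 0.000924). Cyp2b10, a cytochrome P450 gene, was at 56.5, 25.9, 25.4, 39.96 and 33.9 CPM and at 4.51, 5.93, 11.9 and 5.47 CPM (log2 fold change -2.39 ± 0.48, SE, adjusted p = 0.00309). In each of these 3 genes the highest Gαq ERTU value was under the lowest WT ERTU value. Rtn4r, which encodes the Nogo receptor, was at 1.74, 4.96, 1.81, 1.89 and 20.7 CPM and at 0.853, 1.16, 0.452 and 0.322 CPM, and the high value was WT ERTU 15. The call of Rtn4r (log2 fold change -3.16 ± 0.88, SE, adjusted p = 0.0297) was lost without WT ERTU 15, Gαq ERTU 16, 18 or 20, with an adjusted p of up to 0.129. Gm19461 lies opposite to Plekha6, and Prr33 overlaps Lsp1 and Tnnt3, so their reads may be shared with those genes.

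Plbd1, Ces1d, Cabcoco1 and Efnb3 were among the falling genes with the smallest p-values. Ces1d encodes a carboxylesterase that hydrolyses triacylglycerol, and was at 176, 122, 139, 131 and 139.7 CPM in WT ERTU and at 42.5, 21.5, 35.5 and 36.7 CPM in Gαq ERTU. The highest Gαq ERTU library, number 16, was well under the lowest WT ERTU library, number 12 (log2 fold change -2.06 ± 0.20, SE, adjusted p = 3.44e-06). Efnb3, the gene for the membrane ligand ephrin B3, changed by -1.96, Plbd1 by -1.46 and Cabcoco1 by -1.17.

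**Figure D2:**
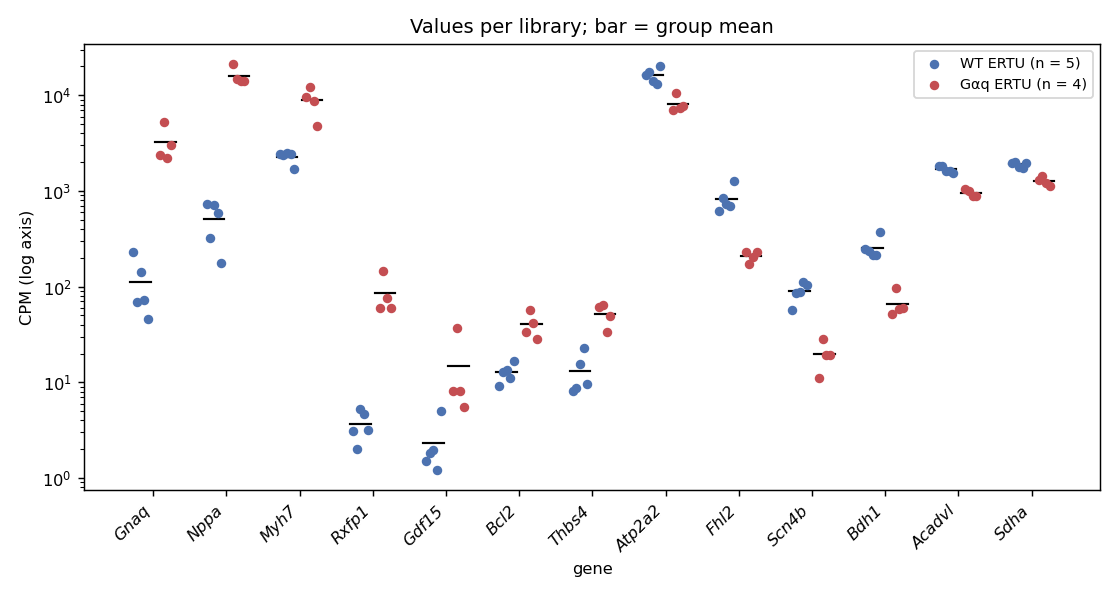
CPM on a log axis for 13 genes in the 5 WT ERTU libraries (blue) and the 4 Gαq ERTU libraries (red), with a bar at each group's mean. From Gnaq to Thbs4 every red point lies above every blue point of the same gene, and from Atp2a2 to Sdha every red point lies below.

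The fetal and hypertrophy list holds genes that ventricles use before birth or raise under load. Of its 12 genes 11 were tested, and 6 were called higher and 1 lower, against 3.93% and 4.24% of all genes. The median log2 fold change was 0.91. Nppa (ENSMUSG00000041616, chromosome 4, 148000722 to 148002079), which encodes atrial natriuretic peptide, was at 726, 323, 716, 584 and 179 CPM in WT ERTU and at 21091, 14906, 14218 and 14133 CPM in Gαq ERTU. The 4 Gαq ERTU libraries all lay far above the highest WT ERTU library (log2 fold change 4.99 ± 0.36, SE, adjusted p = 5.72e-08). Nppb (ENSMUSG00000029019, chromosome 4, 147985788 to 147987205), for brain natriuretic peptide, was at 388, 284, 228, 212 and 263 CPM and at 908, 1071, 706 and 1193 CPM. It rose less than Nppa (log2 fold change 1.82 ± 0.23, SE, adjusted p = 5.72e-05), and the change on CD was 2.36 (adjusted p = 5.87e-06). Myh7 (ENSMUSG00000053093, chromosome 14, 54970684 to 54994626) encodes the slow β-myosin heavy chain of fetal mouse ventricle, and was at 2409, 2366, 2477, 2440.0 and 1684 CPM and at 9509, 12257, 8763 and 4796 CPM. The groups did not overlap (log2 fold change 1.96 ± 0.26, SE, adjusted p = 6.49e-05), with Gαq ERTU 20 the lowest of its group. Myh6, for the α-myosin heavy chain of the adult mouse heart, was at 48346, 52815, 40130.4, 31625 and 46333 CPM and at 30462, 43736, 31006 and 29233 CPM. These values overlapped and the gene was not called (log2 fold change -0.38 ± 0.18, SE, adjusted p = 0.233).

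The other called members were Ankrd1, Xirp2, Rcan1 and Fhl2. Ankrd1 encodes a stretch-responsive repeat protein of the sarcomere and nucleus, and was at 3160.1, 2929.6, 3264, 2623 and 2977 CPM in WT ERTU and at 7815, 9243, 7039.8 and 4662 CPM in Gαq ERTU (log2 fold change 1.27 ± 0.18, SE, adjusted p = 0.000116). Xirp2, for an actin-binding protein of the intercalated disc, was at 755, 921, 704, 757 and 961 CPM and at 997, 3033, 1658 and 1176 CPM. Library 16 lay just above the WT range and library 17 far above it (log2 fold change 1.07 ± 0.25, SE, adjusted p = 0.00898). Rcan1, an inhibitor and target of the phosphatase calcineurin, was at 145, 106, 93.4, 94.97 and 121 CPM and at 205, 242, 142 and 219 CPM. The groups overlapped by a little, since Gαq ERTU 18 lay just under WT ERTU 11 (log2 fold change 0.85 ± 0.15, SE, adjusted p = 0.0014). Fhl2 (ENSMUSG00000008136, chromosome 1, 43123074 to 43196984), for a LIM domain protein that restrains calcineurin signaling, was at 618, 834, 733, 702 and 1256 CPM and at 228, 171, 203 and 231 CPM. It was the 1 member that fell (log2 fold change -1.99 ± 0.25, SE, adjusted p = 5.01e-05). Acta1, the skeletal α-actin gene, was at 1239, 594, 216, 603 and 277 CPM and at 687, 1650.1, 1018 and 1053 CPM. Its values overlapped because WT ERTU 11 was high, and it was not called (log2 fold change 0.91 ± 0.45, SE, adjusted p = 0.244).

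Promoters are shown for the 4 risen fetal genes with a single RefSeq transcription start, because these genes moved together. Each runs from 250 bases before to 50 bases after the start, on the strand of the gene, from RefSeq on GRCm38.p6. Capitals mark the matches to a GATA site (AGATAA), a CRE (TGACGTCA), a MEF2 site or a CArG box, where matches of different motifs may overlap. An ERR response element (TNAAGGTCA) and the NRF1 core (CGCATGCG) were searched for as well, without a match in the promoters shown. All searches covered both strands. Nppa lies at chr4:148000472-148000771 on the plus strand and held no match. Nppb, at chr4:147985650-147985949 on the plus strand, and Ankrd1, at chr19:36119795-36120094 on the minus strand, each held 1 GATA site. Xirp2, at chr2:67445752-67446051 on the plus strand, held 1 MEF2 site. Of the risen genes with 2 promoters, not shown, Myh7 held no match and Rcan1 held a CRE in 1 promoter. Fhl2, the called member that fell, held a GATA site, a MEF2 site and a CArG box.
Nppa: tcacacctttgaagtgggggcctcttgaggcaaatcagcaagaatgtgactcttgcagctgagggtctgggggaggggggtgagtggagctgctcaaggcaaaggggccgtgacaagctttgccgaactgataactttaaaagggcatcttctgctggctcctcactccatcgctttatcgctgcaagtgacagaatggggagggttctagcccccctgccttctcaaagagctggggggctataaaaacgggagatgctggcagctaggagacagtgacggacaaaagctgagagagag
Nppb: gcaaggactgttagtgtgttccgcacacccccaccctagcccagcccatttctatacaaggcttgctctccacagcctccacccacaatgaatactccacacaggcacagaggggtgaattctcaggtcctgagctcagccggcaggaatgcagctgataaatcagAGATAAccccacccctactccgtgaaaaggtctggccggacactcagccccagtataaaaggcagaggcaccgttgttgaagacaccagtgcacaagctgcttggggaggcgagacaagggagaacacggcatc
Ankrd1: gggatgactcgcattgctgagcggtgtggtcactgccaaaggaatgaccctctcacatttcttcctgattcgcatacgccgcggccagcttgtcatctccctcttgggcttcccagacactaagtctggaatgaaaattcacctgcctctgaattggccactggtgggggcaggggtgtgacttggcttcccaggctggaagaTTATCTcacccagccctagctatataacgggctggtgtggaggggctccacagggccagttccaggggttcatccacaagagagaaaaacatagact
Xirp2: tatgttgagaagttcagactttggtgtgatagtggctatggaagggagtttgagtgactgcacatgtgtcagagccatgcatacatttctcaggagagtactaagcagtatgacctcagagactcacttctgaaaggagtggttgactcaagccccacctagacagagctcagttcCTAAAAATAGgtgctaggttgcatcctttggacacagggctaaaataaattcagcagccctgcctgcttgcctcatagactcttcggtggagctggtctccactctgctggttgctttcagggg
Over the 14363 promoters of 11240 tested genes, 6.82% held a GATA site and 2.01% a MEF2 site. Among promoters of called genes a GATA site was found in 8.08% of those that rose and 7.76% of those that fell, and a MEF2 site in 2.64% and 2.17%. A match describes letters in the window and is not evidence of binding.

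The Gq signaling list holds receptors, the α subunits, phospholipases, kinases and regulators. Of 27 genes tested, 1 was higher, Gnaq itself, and 3 were lower, Ednra, Adra1a and Rgs2. These calls were 14.8% of the list, against 8.17% of all genes, and include the overexpressed gene. The list median was 0.0081. Both falling receptors couple to Gαq. Ednra, for the endothelin A receptor, was at 82.5, 80.5, 64.9, 65.1 and 67.5 CPM in WT ERTU and at 36.2, 43.1, 43.9 and 47.8 CPM in Gαq ERTU. The groups did not overlap (log2 fold change -0.75 ± 0.13, SE, adjusted p = 0.00112), and the change on CD was -0.57 (adjusted p = 0.00864). Adra1a, for the α1A-adrenergic receptor, was at 55.6, 63.1, 41.6, 31.6 and 42.8 CPM and at 13.8, 22.2, 20.2 and 23.1 CPM. It fell further than Ednra (log2 fold change -1.24 ± 0.23, SE, adjusted p = 0.00171). Rgs2 encodes a GTPase-activating protein that ends Gαq signals, and was at 90.3, 54.3, 83.2, 88.7 and 56.6 CPM and at 44.7, 15.4, 43.4 and 42.3 CPM. Gαq ERTU 17 was far below the others (log2 fold change -1.03 ± 0.31, SE, adjusted p = 0.0464), and the call was lost in 10 of the 18 fits that left out 1 library. Adra1b, the other α1 receptor gene listed, changed by -0.62 without being called (adjusted p = 0.0615), while the angiotensin II receptor gene Agtr1a was at 0.0081 and Gna11, the closest relative of Gnaq, at 0.12. Of the 17 tested genes of β-adrenergic and cAMP signaling, 0 were called in edgeR, 1 in DESeq2 and 2 in voom with sample weights, and 2 had an unadjusted p under 0.05. The smallest p in that list was that of Pde3a, for a cAMP phosphodiesterase, at -0.50 (adjusted p = 0.0501).

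Of 22 sarcomere genes tested, 2 (9.09%) were called, both higher, close to the 8.17% of all genes, and the median was -0.10. The count was 1 without WT ERTU 11, 12 or 13 or Gαq ERTU 16 or 18, 4 without WT ERTU 14, 6 in DESeq2 and 7 in voom with sample weights. Myom2, for the M-band protein myomesin 2, was at 1971, 2493, 2267, 1528 and 1527 CPM in WT ERTU and at 3968, 4792, 3889 and 3018 CPM in Gαq ERTU. The groups did not overlap (log2 fold change 1.0 ± 0.20, SE, adjusted p = 0.00366). Nexn, for the Z-disc protein nexilin, rose by less (log2 fold change 0.45 ± 0.13, SE, adjusted p = 0.0349), its values overlapped, and the call was lost in 7 of the 18 fits without 1 library.

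Calcium cycling genes gave 1 call higher and 4 lower among 25 tested (20%, against 8.17% of all genes), with a median of -0.081. The 5 calls became 3 without WT ERTU 11, 12 or 15 or Gαq ERTU 18 or 20, and 8 in voom with sample weights. Atp2a2 (ENSMUSG00000029467, chromosome 5, 122453513 to 122502225), for the pump SERCA2 that returns calcium to the sarcoplasmic reticulum, was at 16217, 17686, 14126, 12980.0 and 20188 CPM in WT ERTU and at 6937, 10484, 7337 and 7729.9 CPM in Gαq ERTU. Every Gαq ERTU library was lower than every WT ERTU library (log2 fold change -1.0 ± 0.17, SE, adjusted p = 0.000686). Slc8a1, for the sodium-calcium exchanger of the plasma membrane, was at 385, 443, 341, 356 and 659 CPM and at 204, 320.2, 244 and 219 CPM (log2 fold change -0.82 ± 0.19, SE, adjusted p = 0.00839). Its groups lay closer, with Gαq ERTU 17 just under WT ERTU 13. Ryr2, for the calcium release channel, was at 2465, 2133, 1334, 1292 and 2752 CPM and at 751, 1583, 1261 and 1061 CPM. These groups overlapped, since WT ERTU 13 and 14 were low and Gαq ERTU 17 was high (log2 fold change -0.78 ± 0.22, SE, adjusted p = 0.035), and the call was lost in 6 of the 18 fits without 1 library. Tmem38a, for a cation channel of the reticulum, fell by a small amount (log2 fold change -0.38 ± 0.10, SE, adjusted p = 0.0272), a call lost in 5 of 18 fits without 1 library. Casq1, the skeletal-type calsequestrin gene, rose from 41.1, 56.9, 34.01, 45.6 and 29.1 CPM to 114, 186, 119.5 and 115 CPM with no overlap (log2 fold change 1.69 ± 0.27, SE, adjusted p = 0.000499).

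Ion channel and connexin genes fell more often than they rose, with 21 of the 26 values below 0 and a median of -0.30. Of the 26 genes 9 were called (34.6%, against 8.17% of all genes), 8 lower and 1 higher. Scn4b (ENSMUSG00000046480, chromosome 9, 45138395 to 45154152), for a β subunit of the sodium channel, was at 56.4, 86.3, 87.6, 113 and 103 CPM in WT ERTU and at 11.1, 28.7, 19.2 and 19.2 CPM in Gαq ERTU (log2 fold change -2.19 ± 0.30, SE, adjusted p = 0.000108). The remaining genes that fell encode subunits of potassium channels. Kcnj3, for a channel opened by G proteins after muscarinic stimulation, was at 49.7, 63.5, 53.1, 47.1 and 65.3 CPM and at 19.6, 21.8, 19.6 and 28.5 CPM (log2 fold change -1.31 ± 0.16, SE, adjusted p = 4.27e-05). Kcnj2, for the inward rectifier that sets the resting potential, was at 45.03, 43.4, 41.8, 36.5 and 61.8 CPM and at 26.3, 26.9, 29.1 and 27.9 CPM (log2 fold change -0.73 ± 0.12, SE, adjusted p = 0.000647). The Gαq ERTU libraries were all below the WT ERTU libraries for both genes. Kcnd2, for a channel of the transient outward current, was at 23.1, 32.3, 33.1, 21.4 and 37.9 CPM and at 14.6, 26.3, 16.2 and 14.02 CPM and overlapped (log2 fold change -0.74 ± 0.18, SE, adjusted p = 0.0147), and its call was lost without Gαq ERTU 16, 18 or 20. Kcnip2, the auxiliary subunit of that channel, changed by -0.55, Kcnk3 by -0.79, Kcnv2 by -0.86 and Kcnq1 by -0.55. The calls of Kcnv2 and Kcnq1 were lost in 11 and 13 of the 18 fits without 1 library. Gjc1, for the gap junction protein connexin 45, was the gene that rose, from 25.5, 26.9, 27.5, 25.6 and 21.3 CPM to 55.3, 48.5, 45.5 and 41.2 CPM (log2 fold change 0.91 ± 0.13, SE, adjusted p = 0.000208). Between 6 and 11 genes of this list were called without 1 library.

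Among the lists of mitochondrial fuel use, more genes were called lower than higher in Gαq ERTU. Fatty acid oxidation supplies most of the energy of the adult heart. Of its 32 listed genes 19 (59.4%, against 8.17% of all genes) were called lower and 0 higher. The list median was -0.52 on ERTU and -0.68 on CD. Of the 32 log2 fold changes, 31 were below 0. Acadvl, for the very-long-chain acyl-CoA dehydrogenase, was at 1822, 1841, 1612, 1615 and 1548 CPM in WT ERTU and at 1053, 996, 879.6 and 889 CPM in Gαq ERTU. Its highest Gαq ERTU library lay well under the lowest WT ERTU library (log2 fold change -0.82 ± 0.13, SE, adjusted p = 0.00034). Acad11, for another dehydrogenase, was at 427, 409, 378, 409.6 and 421 CPM and at 203, 240.0, 210.1 and 206 CPM, with little spread in either group (log2 fold change -0.93 ± 0.11, SE, adjusted p = 4.27e-05). Ech1, for the isomerase that handles dienoyl-CoA, was at 1172, 1279, 1473, 1469 and 1126 CPM and at 705, 549, 603 and 642 CPM (log2 fold change -1.06 ± 0.15, SE, adjusted p = 0.000127). Ehhadh, for the bifunctional enzyme of peroxisomes, was at 52.8, 48.04, 34.8, 42.7 and 26.1 CPM and at 15.8, 12.97, 17.3 and 19.6 CPM and had the largest fall of the list (log2 fold change -1.31 ± 0.25, SE, adjusted p = 0.00197). Hadha, for the α subunit of the mitochondrial trifunctional protein, was at 2500.4, 2664, 2366, 2156 and 2082 CPM and at 1807, 1751, 1499 and 1471 CPM without overlap (log2 fold change -0.53 ± 0.14, SE, adjusted p = 0.024), a call lost without WT ERTU 11 or 12 or Gαq ERTU 18 or 20. Both carnitine palmitoyltransferase genes of the muscle pathway were measured. Cpt2, for the enzyme of the inner membrane, changed by -0.95 (adjusted p = 0.000613). Cpt1b, for the muscle enzyme of the outer membrane that admits fatty acids, was at 22.1, 17.3, 17.1, 12.5 and 12.8 CPM and at 11.6, 16.1, 9.89 and 10.98 CPM, overlapping and not called (log2 fold change -0.43 ± 0.25, SE, adjusted p = 0.345). Between 15 and 19 of the 32 genes were called in the fits without 1 library, and 15 without WT ERTU 14 and Gαq ERTU 20.

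Targets of the fatty acid receptor PPARA had the lowest list median, -0.65. Of the 14, 2 (14.3%, against 8.17% of all genes) were called, Ehhadh and Mgll, which encodes monoacylglycerol lipase (log2 fold change -0.58 ± 0.14, SE, adjusted p = 0.0115). Without Gαq ERTU 18 the call of Mgll was lost and 1 remained. Several members varied widely within the groups. Pdk4, for the kinase that shuts off pyruvate dehydrogenase, was at 6869, 4200.2, 3194, 3093 and 1677 CPM in WT ERTU and at 2041, 1308, 1508 and 2471 CPM in Gαq ERTU (log2 fold change -1.06 ± 0.78, SE, adjusted p = 0.473). Ucp3, for an uncoupling protein, was at 257, 220.1, 175, 123 and 117 CPM and at 130.1, 61.2, 86.5 and 82.5 CPM (log2 fold change -0.99 ± 0.65, SE, adjusted p = 0.408). WT ERTU 11 was the highest and WT ERTU 15 the lowest of its group for both genes.

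Ketone bodies are a second fuel of the heart, and 4 of their 6 genes (66.7%, against 8.17% of all genes) were called lower. Bdh1 (ENSMUSG00000046598, chromosome 16, 31422280 to 31458901) encodes 3-hydroxybutyrate dehydrogenase, the first step of ketone oxidation, and was at 244, 237, 214, 216 and 369.7 CPM in WT ERTU and at 51.5, 96.1, 58.3 and 59.3 CPM in Gαq ERTU. No values overlapped, and WT ERTU 15 was the highest (log2 fold change -1.95 ± 0.28, SE, adjusted p = 0.000177). Oxct1, for the transferase of the next step, changed by -0.44 (adjusted p = 0.0482), a call lost in 12 of the 18 fits without 1 library. Acat1, for the thiolase, was at 830.3, 867, 839, 979.5 and 825 CPM and at 646, 708, 643 and 616 CPM (log2 fold change -0.41 ± 0.10, SE, adjusted p = 0.01). Slc16a1, for the monocarboxylate transporter MCT1, was at 224, 246, 222, 207 and 306 CPM and at 160.1, 179.9, 161 and 169.5 CPM (log2 fold change -0.52 ± 0.15, SE, adjusted p = 0.0361), a call lost in 6 of those fits. The number called was 2 without WT ERTU 12 or 15 or Gαq ERTU 16, 18 or 20, and 1 without WT ERTU 14 and Gαq ERTU 20.

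The TCA cycle oxidizes acetyl-CoA from these fuels. Of 15 genes 11 (73.3%, against 8.17% of all genes) were called lower and 0 higher. All 15 values were below 0, and the median was -0.53. Dld, for the dehydrogenase subunit that the 2-oxoglutarate and pyruvate complexes share, was at 709, 707, 655, 729 and 738 CPM in WT ERTU and at 414, 463, 436 and 390.1 CPM in Gαq ERTU (log2 fold change -0.73 ± 0.10, SE, adjusted p = 9.54e-05). Suclg2 and Sucla2 encode the β subunits of both succinyl-CoA synthetases, and changed by -0.74 and -0.67, with no overlap for either. Without Gαq ERTU 20 the number called was 7. In the list of pyruvate dehydrogenase and pyruvate entry 6 of 12 genes (50%, against 8.17% of all genes) were called lower and 0 higher. Pdhb, for a subunit of the enzyme, was among them (log2 fold change -0.57 ± 0.10, SE, adjusted p = 0.000698). So was Mpc2, for a subunit of the mitochondrial pyruvate carrier (log2 fold change -0.62 ± 0.11, SE, adjusted p = 0.00159). The list gave 5 to 8 calls in the fits without 1 library, and 4 without WT ERTU 14 and Gαq ERTU 20.

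The called genes of oxidative phosphorylation were all lower, and their share varied among the complexes. In complex II 75% were called, in complex III 40%, in complex I 27.8% and in ATP synthase 26.7%, against 8.17% of all genes. For complex IV the share was 0%. In complex II, which is also the succinate dehydrogenase of the TCA cycle, 3 of 4 genes were called lower with a median of -0.49. Sdha, for its catalytic subunit, was at 1978, 1994, 1764, 1756 and 1965 CPM in WT ERTU and at 1299, 1417, 1209 and 1133 CPM in Gαq ERTU (log2 fold change -0.58 ± 0.10, SE, adjusted p = 0.00137). In complex III with cytochrome c, 4 of 10 were called lower with a median of -0.31. Uqcrfs1, for the Rieske iron-sulfur protein, was at 924, 904, 902, 825 and 846 CPM and at 607, 480.0, 545 and 555 CPM (log2 fold change -0.69 ± 0.10, SE, adjusted p = 0.000184). The groups were apart for both of these genes. In complex I, 10 of 36 were called lower with a median of -0.25, led by the iron-sulfur subunit gene Ndufs7 (log2 fold change -0.56 ± 0.12, SE, adjusted p = 0.0051), and 35 of 36 values were below 0. In ATP synthase 4 of 15 were called lower with a median of -0.18, including Atp5a1 for the α subunit (log2 fold change -0.48 ± 0.10, SE, adjusted p = 0.00553). In complex IV, cytochrome c oxidase, 0 of 14 were called in edgeR, 2 in DESeq2 and 4 in voom with sample weights, and 4 had an unadjusted p under 0.05. The median was -0.14, and the smallest p was that of Cox5b at -0.36 (adjusted p = 0.0507). The count for complex I had the widest range of these in the fits without 1 library. It was 2 without Gαq ERTU 18 or 20, from 4 to 6 without WT ERTU 11, 12, 13 or 15 or Gαq ERTU 17, and 3 without WT ERTU 14 and Gαq ERTU 20.

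Genes for energy transfer and for the making of mitochondria were called in the same direction. Both muscle creatine kinase genes fell, Ckmt2 of mitochondria from 3169, 2958, 2484, 2357 and 2690.1 CPM to 1793, 1524, 1555 and 1717 CPM (log2 fold change -0.73 ± 0.12, SE, adjusted p = 0.000812) and Ckm of the cytosol with a log2 fold change of -0.65. Of 74 mitochondrial ribosome genes 21 (28.4%, against 8.17% of all genes) were called lower and 0 higher, with a median of -0.22. Mrpl45 led them (log2 fold change -0.64 ± 0.11, SE, adjusted p = 0.000959), and 12 were called without Gαq ERTU 20. Of 39 mitochondrial carrier genes 7 (17.9%, against 8.17% of all genes) were called lower, led by Slc25a22 for a glutamate carrier (log2 fold change -0.94 ± 0.18, SE, adjusted p = 0.00259). The cytosolic ribosome list had 1 of 80 genes called and a median of 0.14. The called gene was Rpl3l, the striated muscle form of a ribosomal protein, at -0.66.

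Branched-chain amino acids are broken down in mitochondria. Of 20 genes of that pathway 12 (60.0%, against 8.17% of all genes) were called lower and 0 higher. The median was -0.39, and all 20 values were below 0. Ppm1k, for the phosphatase that activates the branched-chain ketoacid dehydrogenase, was at 125, 128, 116, 97.6 and 104 CPM in WT ERTU and at 49.8, 64.8, 57.3 and 54.1 CPM in Gαq ERTU (log2 fold change -1.01 ± 0.13, SE, adjusted p = 5.67e-05). Hibadh, for an enzyme of valine breakdown, was at 344, 322, 306, 297 and 305 CPM and at 204, 211, 203 and 194 CPM (log2 fold change -0.63 ± 0.08, SE, adjusted p = 5.72e-05). The libraries of each group lay close together and the groups did not overlap. Without Gαq ERTU 20 the pathway gave 7 calls.

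Of 25 genes of glycolysis and glycogen 4 were called lower and 1 higher (20% in all, against 8.17% of all genes), with a median of -0.24. Pfkfb1 (ENSMUSG00000025271, chromosome X, 150588229 to 150643878), for an enzyme that sets fructose 2,6-bisphosphate and so the rate of glycolysis, was at 30.8, 32.2, 31.7, 24.8 and 23.6 CPM in WT ERTU and at 7.13, 5.16, 7.34 and 5.56 CPM in Gαq ERTU (log2 fold change -2.19 ± 0.29, SE, adjusted p = 6.88e-05). Pfkp, for the platelet-type phosphofructokinase, rose from 73.6, 81.3, 65.2, 73.3 and 86.6 CPM to 97.97, 164, 117 and 108 CPM (log2 fold change 0.68 ± 0.14, SE, adjusted p = 0.00388). The groups were apart for both. Slc2a4, for the insulin-responsive glucose transporter GLUT4, was at 423, 414, 333, 291 and 513 CPM and at 246, 285, 241 and 224 CPM (log2 fold change -0.66 ± 0.17, SE, adjusted p = 0.0166). Slc2a1, for the transporter GLUT1, was at -0.40 and was not called (adjusted p = 0.161). The list gave 2 calls without Gαq ERTU 20 and 3 without Gαq ERTU 18, and without Gαq ERTU 18 or 20 or WT ERTU 15 the call of Slc2a4 was lost.

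Of 18 regulators of metabolism tested, 2 (11.1%, against 8.17% of all genes) were called lower, Tfam, for the factor that transcribes and packs mitochondrial DNA, and Esrrb, for an estrogen-related receptor. Esrrb (log2 fold change -0.50 ± 0.15, SE, adjusted p = 0.0429) lost its call in 9 of the 18 fits without 1 library. The list gave 1 to 4 calls in those fits, with 4 without Gαq ERTU 17, and gave 4 in DESeq2 and 5 in voom with sample weights. Tfam was at 48.99, 58.4, 55.03, 53.6 and 56.95 CPM in WT ERTU and at 38.3, 44.4, 37.6 and 38.97 CPM in Gαq ERTU without overlap (log2 fold change -0.46 ± 0.09, SE, adjusted p = 0.0018). Ppargc1a, for the coactivator PGC-1α, was at 145, 129, 119, 104 and 193 CPM and at 96.9, 118, 111 and 93.02 CPM (log2 fold change -0.40 ± 0.17, SE, adjusted p = 0.157). Esrra, for estrogen-related receptor α, was at 157, 165, 148, 151 and 185 CPM and at 136, 135, 132 and 139 CPM (log2 fold change -0.25 ± 0.09, SE, adjusted p = 0.0799). Ppara was at 34.4, 38.6, 28.4, 32.3 and 48.4 CPM and at 13.7, 35.04, 27.2 and 23.7 CPM (log2 fold change -0.54 ± 0.22, SE, adjusted p = 0.15). The 3 genes were below their WT mean but did not pass the test, and all 18 log2 fold changes of the list were below 0. Of the 29 promoters found for the fatty acid oxidation genes, 0 held the ERR response element as spelled above, against 0.752% of all promoters, and 3 held the NRF1 core (10.3%, against 3.44%). At a share of 0.752%, 29 promoters are too few for a count of 0 to carry meaning, and neither share was tested.

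**Figure D3:**
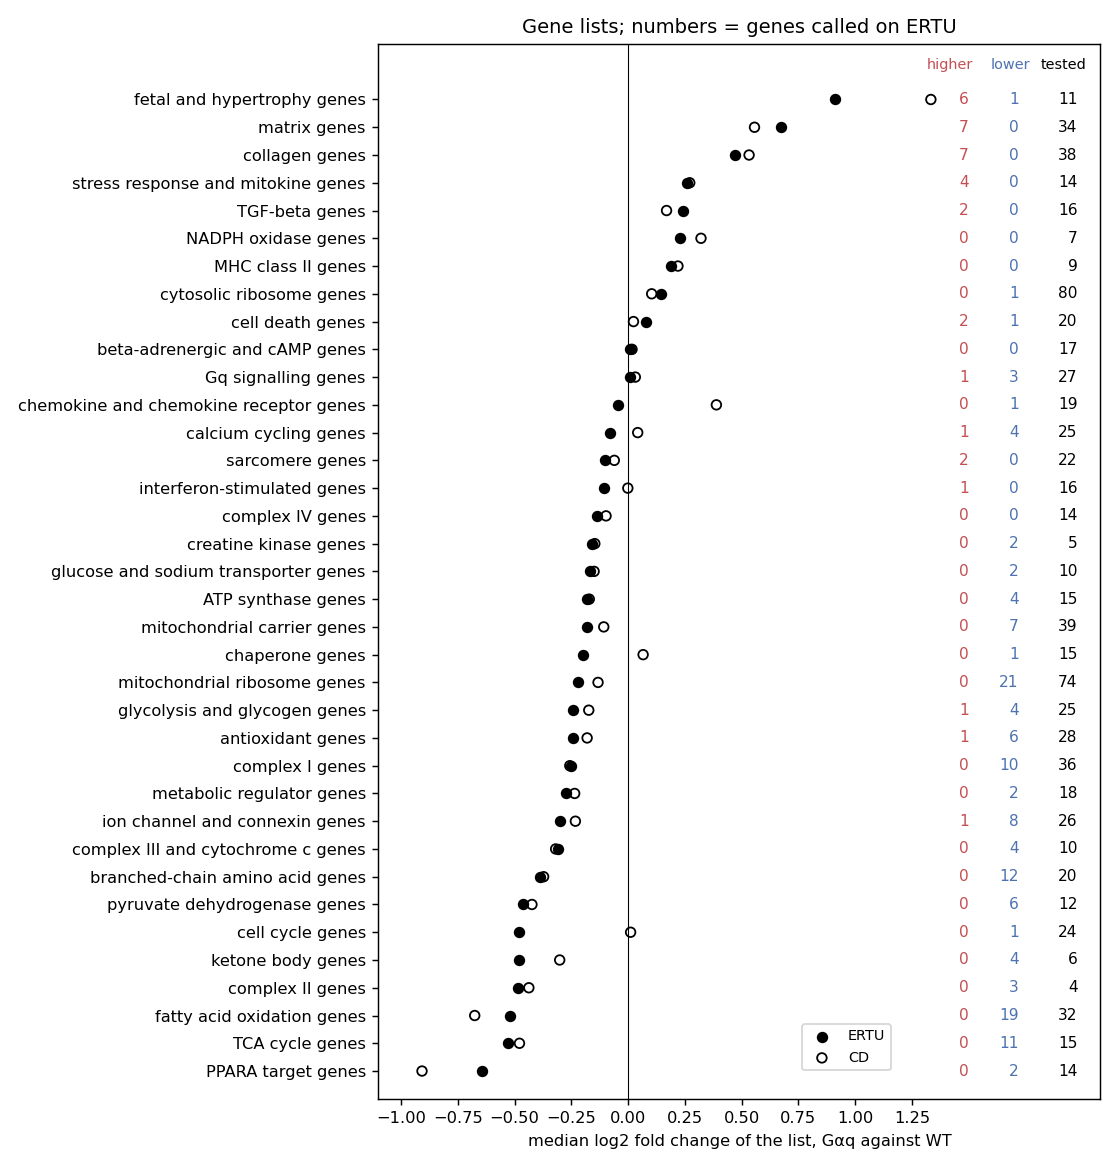
Median log2 fold change, Gαq against WT, of 36 gene lists on ERTU (filled circles) and on CD (open circles), with the genes called higher, called lower and tested on ERTU at the right. Lists of mitochondrial metabolism lie left of 0. Their calls are in the lower direction, with 0 calls in complex IV, and the fetal, matrix and collagen lists lie furthest right.

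The called genes of the extracellular matrix were all higher. Of 34 matrix genes 7 (20.6%, against 8.17% of all genes) were called higher and 0 lower. Their median was 0.67, with 31 values above 0. Of 38 collagen genes 7 (18.4%, against 8.17% of all genes) were called higher and 0 lower, with a median of 0.47. Thbs4, for the matricellular protein thrombospondin 4, was at 8.04, 8.69, 15.7, 22.97 and 9.6 CPM in WT ERTU and at 61.7, 63.8, 33.3 and 49.4 CPM in Gαq ERTU. The highest WT ERTU library was number 14, below all Gαq ERTU libraries (log2 fold change 1.99 ± 0.34, SE, adjusted p = 0.000892). Cilp, for a cartilage matrix protein also made in the heart, was at 7.38, 6.91, 4.61, 11.4 and 3.93 CPM and at 33.8, 41.97, 15.4 and 31.3 CPM (log2 fold change 2.15 ± 0.39, SE, adjusted p = 0.00142). Mmp2, for a gelatinase that cleaves matrix, was at 113, 108, 108, 139 and 97.2 CPM and at 191, 175, 176 and 229 CPM (log2 fold change 0.77 ± 0.15, SE, adjusted p = 0.00255). Among the called matrix genes were also Lum (1.07), Bgn (0.92), Mfap5 (0.87) and Fn1 (0.86). The calls of Mfap5 and Fn1 were each lost in 7 of the 18 fits without 1 library. The called collagens were Col6a5, Col4a4, Col4a3, Col22a1, Col9a2, Col1a2 and Col14a1, of which Col14a1 lost its call in 10 of those fits and Col1a2 without Gαq ERTU 20. Col6a5 was at 3.48, 2.51, 1.701, 3.46 and 1.93 CPM and at 7.07, 10.9, 14.3 and 23.4 CPM (log2 fold change 2.41 ± 0.41, SE, adjusted p = 0.000863). Col4a4, for a basement membrane chain, was at 13.1, 13.99, 19.3, 14.8 and 13.7 CPM and at 21.3, 29.9, 32.7 and 26.7 CPM (log2 fold change 0.88 ± 0.15, SE, adjusted p = 0.000892). The main fibrillar chain Col1a1 was at 96.1, 152, 120.4, 128 and 121 CPM and at 149.6, 286, 161 and 273 CPM, overlapped by 1 library and was not called (log2 fold change 0.82 ± 0.27, SE, adjusted p = 0.0714). Postn, for periostin of activated fibroblasts, was at 38.98, 52.9, 49.6, 129 and 69.1 CPM and at 96.3, 106, 117 and 136 CPM (log2 fold change 0.75 ± 0.37, SE, adjusted p = 0.248). WT ERTU 14 lay within the Gαq range for Postn, and the others of its group lay below it.

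Of 16 TGF-β genes, 2 ligands (12.5%, against 8.17% of all genes) were called higher. Tgfb3 was at 17.4, 18.9, 21.4, 26.6 and 17.7 CPM in WT ERTU and at 41.7, 52.5, 38.4 and 48.9 CPM in Gαq ERTU, without overlap (log2 fold change 1.15 ± 0.16, SE, adjusted p = 0.000113). Tgfb2 was at 13.5, 14.7, 18.2, 19.9 and 14.3 CPM and at 24.4, 39.5, 22.8 and 25.3 CPM, and its call (log2 fold change 0.80 ± 0.24, SE, adjusted p = 0.049) was lost in 12 of the 18 fits without 1 library.

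Fibroblast marker sums were higher in every Gαq ERTU library than in 4 of the 5 WT ERTU libraries. The sum over 8 genes was 3424, 3578, 3894, 5934 and 3369 CPM in WT ERTU and 5551, 5260.2, 5863 and 6204 CPM in Gαq ERTU, with WT ERTU 14 inside the Gαq range and the other 4 WT libraries below it. All 8 values were above 0 with a median of 0.46, and 1 gene, Lum, was called. Without 1 library the collagen list gave 5 to 10 calls, with 5 without Gαq ERTU 20. The matrix list gave 5 calls without WT ERTU 11, 12 or 15 or Gαq ERTU 18 or 20. It gave 15 without WT ERTU 14, where the calls over all genes were 1696, and 11 without both WT ERTU 14 and Gαq ERTU 20. Whether more fibroblasts or more RNA per fibroblast lies behind these values was not tested. Epicardial markers had a median of 2.17 and sums of 5.94, 7.19, 7.85, 14.8 and 8.505 CPM and 13.4, 20.1, 9.89 and 24.9 CPM, with 0 of their 4 genes called in edgeR and 1 at an unadjusted p under 0.05. Adipocyte marker sums reached 106 CPM in Gαq ERTU 20, against 2.01 to 25.7 CPM in WT ERTU. Macrophage sums overlapped, at 333 to 485 CPM and 355 to 540 CPM. The T-cell and B-cell markers Cd3e, Cd3d, Cd8a and Ms4a1 were too low to test. Of the markers of the 13 cell types, 3 were called in all, Lum and Tnnt3 higher and Ryr2 lower.

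**Figure D4:**
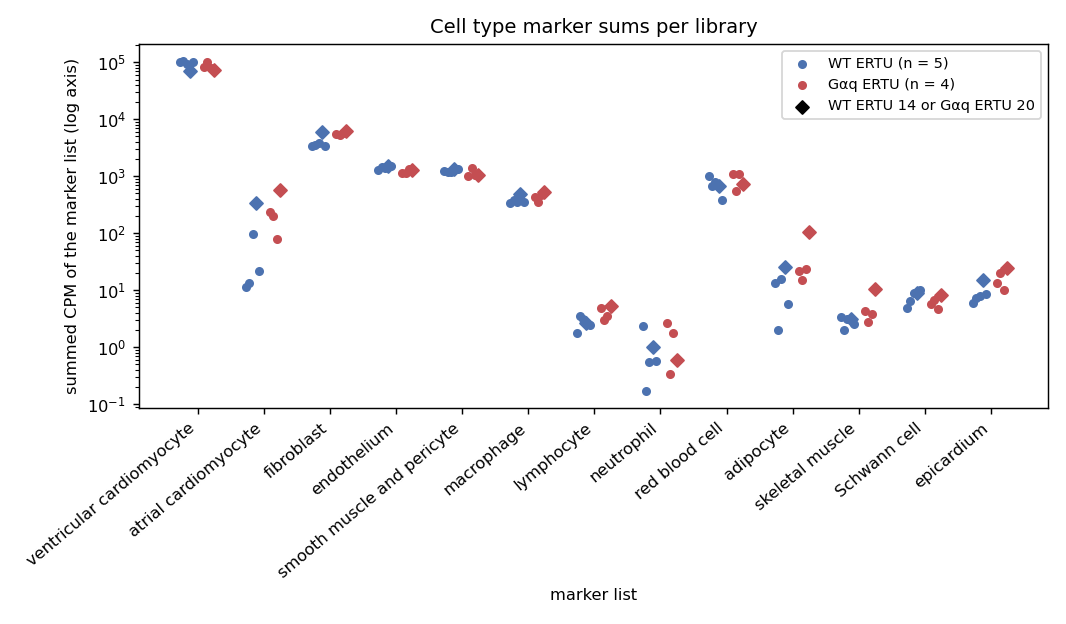
Summed CPM of 13 marker lists on a log axis in the 5 WT ERTU libraries (blue) and the 4 Gαq ERTU libraries (red), with diamonds for WT ERTU 14 and Gαq ERTU 20. Atrial marker sums span 11.4 to 575 CPM, and the fibroblast sum of WT ERTU 14 lies among those of Gαq ERTU.

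Immune signaling genes were called at shares near the 8.17% of all genes. Among 19 chemokine and chemokine receptor genes 1 (5.26%), Cxcl14, was called, and it fell from 14.8, 19.9, 23.3, 18.3 and 26.7 CPM to 8.23, 10.5, 10.5 and 6.89 CPM (log2 fold change -1.19 ± 0.24, SE, adjusted p = 0.00325). Among 16 interferon-stimulated genes 1 (6.25%), Ifit2, was called, and it rose from 34.1, 25.2, 32.2, 36.9 and 29.4 CPM to 63.4, 48.8, 50.8 and 48.99 CPM (log2 fold change 0.75 ± 0.14, SE, adjusted p = 0.00183). Of 9 MHC class II genes 0 were called in edgeR and DESeq2 and 1 in voom with sample weights, and 1 had an unadjusted p under 0.05. Cd74, for the class II invariant chain, was at 47.2, 83.5, 93.3, 63.9 and 96.0 CPM and at 77.4, 116, 64.1 and 56.9 CPM, with the groups intermixed (log2 fold change 0.03 ± 0.23, SE, adjusted p = 0.958).

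Antioxidant genes were called mostly in the lower direction, with 6 lower and 1 higher among 28 tested (25%, against 8.17% of all genes). The median was -0.24. The genes that fell include those of mitochondria. Prdx3, for the mitochondrial peroxiredoxin, was at 357, 371, 379, 427 and 383 CPM in WT ERTU and at 268, 261, 267 and 271 CPM in Gαq ERTU, with a narrow spread in Gαq ERTU (log2 fold change -0.52 ± 0.09, SE, adjusted p = 0.000695). Sod2, for the mitochondrial superoxide dismutase, was at 734, 718, 658, 584 and 734 CPM and at 503, 509, 452 and 407 CPM (log2 fold change -0.55 ± 0.11, SE, adjusted p = 0.0024). Nnt, for the transhydrogenase that makes mitochondrial NADPH, changed by -0.77 (adjusted p = 0.016). Nqo1, for a quinone reductase of the cytosol, fell from 56.1, 73.01, 99.6, 87.7 and 76.99 CPM to 50.3, 42.7, 35.2 and 40.4 CPM (log2 fold change -0.90 ± 0.17, SE, adjusted p = 0.00243). Gpx3, for the secreted glutathione peroxidase, was the gene that rose, with overlapping values (log2 fold change 0.92 ± 0.26, SE, adjusted p = 0.0357), and its call was lost in 6 of the 18 fits without 1 library. Cat, for catalase, was at -0.34 and was not called (adjusted p = 0.388). The 7 NADPH oxidase genes gave 0 calls in edgeR and DESeq2, 1 in voom with sample weights and 0 at an unadjusted p under 0.05. All 7 values were above 0, with Nox4 at 1.07 (adjusted p = 0.241).

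Of 14 tested genes of the stress response list, 4 were called higher and 0 lower (28.6%, against 8.17% of all genes). The median was 0.26, with 8 values above 0 and 6 below, the lowest at -1.39. On CD 4 were called higher and 1 lower. Gdf15 (ENSMUSG00000038508, chromosome 8, 70629393 to 70632456), which encodes a stress-induced circulating cytokine, was at 1.499, 1.84, 1.97, 1.21 and 4.96 CPM in WT ERTU and at 8.16, 37.4, 8.08 and 5.56 CPM in Gαq ERTU. Gαq ERTU 17 was several-fold above the rest of its group, and the lowest, number 20, was just above WT ERTU 15 (log2 fold change 2.70 ± 0.52, SE, adjusted p = 0.00225). Mthfd2, for a mitochondrial enzyme of one-carbon metabolism, was at 4.44, 3.18, 2.304, 3.72 and 3.54 CPM and at 7.19, 12.6, 7.63 and 10.6 CPM (log2 fold change 1.47 ± 0.22, SE, adjusted p = 0.000296). Asns, for asparagine synthetase, rose by 0.93 and Atf5, for a transcription factor of the mitochondrial unfolded protein response, by 0.48. Among 15 chaperone genes 1 was called (6.67%, against 8.17% of all genes). This was Hspd1, for the mitochondrial chaperonin, which fell (log2 fold change -0.47 ± 0.10, SE, adjusted p = 0.00565).

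Of 20 cell death genes, 2 were called higher and 1 lower (15% in all, against 8.17% of all genes). Bcl2, for the founding inhibitor of apoptosis, was at 9.17, 12.9, 13.5, 11.2 and 16.6 CPM in WT ERTU and at 33.9, 56.8, 42.03 and 28.03 CPM in Gαq ERTU. The groups did not overlap (log2 fold change 1.67 ± 0.20, SE, adjusted p = 3.86e-05). Pmaip1, for the BH3-only protein NOXA, rose (log2 fold change 1.32 ± 0.39, SE, adjusted p = 0.0417) on 4 to 15 reads per WT ERTU library and 16 to 31 per Gαq ERTU library, and its call was lost in 9 of the 18 fits without 1 library. Bcl2l13, for a mitochondrial member of the family, fell by a smaller amount (log2 fold change -0.43 ± 0.10, SE, adjusted p = 0.00789). Among 24 cell cycle genes 1 was called (4.17%, against 8.17% of all genes). This was Rrm2, for a subunit of ribonucleotide reductase, which fell (log2 fold change -0.75 ± 0.22, SE, adjusted p = 0.0363). Its call was lost without WT ERTU 11 or 15 or Gαq ERTU 16, 17 or 18, and the list gave 0 to 4 calls without 1 library.

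The same genotype comparison on CD used no library of the comparison on ERTU, though both draw on the spread estimated from all 18 libraries. It called 1318 genes (8.10%), 651 higher (4.00%) and 667 lower (4.10%). Of the genes called on ERTU, 1319 of 1330 had the same direction on CD, with a median change toward that direction of 0.67 on ERTU and 0.58 on CD. Of the genes called on CD, 1311 had the same direction on ERTU, with medians of 0.73 on CD and 0.62 on ERTU. In each case the smaller median belongs to the diet that did not choose the genes. The 848 genes called on both diets were 63.8% of the calls on ERTU and 64.3% of those on CD.

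The 482 genes called on ERTU and not on CD were not shown to depend on the diet. Of these genes, 471 had the same direction on CD, 296 had an unadjusted p under 0.05 there, and 50 had an unadjusted p under 0.05 for the interaction of genotype and diet. The interaction test called 0 of 16270 genes in edgeR, with a smallest adjusted p of 1.00 and 313 genes at an unadjusted p under 0.05. DESeq2 and voom with sample weights also called 0, with 412 and 953 genes at that unadjusted p. For Gnaq the log2 fold change was 4.85 on ERTU and 5.98 on CD, a difference of -1.13 with a 95% interval from -2.64 to 0.37. For Nppb the difference was -0.55 (95% interval -1.23 to 0.14), and for Myh7 it was 0.47 (-0.28 to 1.22). Both intervals include 0.

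The 3 genes with the smallest interaction p are named with that limit, since none passed the adjusted test. Lcp2, for the adaptor SLP-76 of blood cells, was at 3.06, 3.4, 2.03, 2.57 and 3.93 CPM in WT ERTU and at 2.92, 2.49, 2.94 and 2.53 CPM in Gαq ERTU, and on CD at 2.36, 2.73, 2.2 and 2.64 CPM in WT and at 4.86, 4.69, 6.13, 4.77 and 5.81 CPM in Gαq. The groups overlapped on ERTU and were apart on CD (log2 fold change -0.14 and 1.08, difference -1.22, 95% interval -1.74 to -0.69). Kif14, a mitotic kinesin gene, was at 0.5997, 0.948, 0.603, 0.996 and 0.387 CPM and at 0.183, 0.166, 0.226 and 0.414 CPM on ERTU, which are 6 to 19 and 3 to 9 reads per library. It changed by -1.47 on ERTU and 0.38 on CD (difference -1.85, 95% interval -2.88 to -0.82). Themis2, for a signaling protein of B cells and macrophages, was at 4.92, 4.74, 5.54, 4.77 and 5.15 CPM and at 4.45, 3.94, 4.24 and 3.72 CPM on ERTU, and on CD at 5.19, 5.298, 5.85 and 6.28 CPM in WT and 6.33, 7.79, 6.95, 7.27 and 6.42 CPM in Gαq. Each Gαq library was below each WT library on ERTU and above each on CD (log2 fold change -0.30 and 0.30, difference -0.60, 95% interval -0.95 to -0.25).

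**Figure D5:**
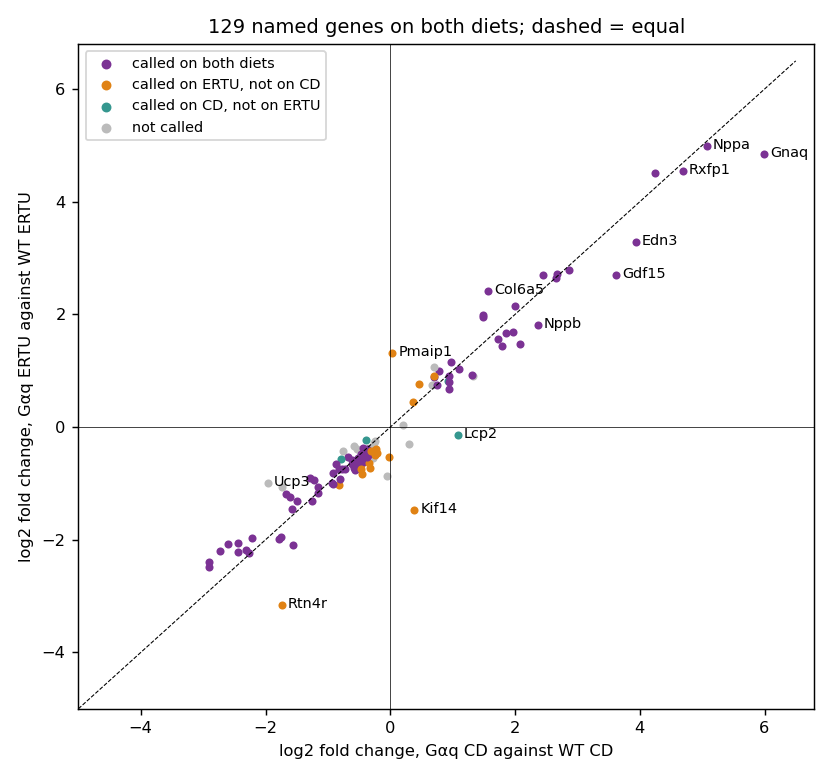
Log2 fold change of Gαq against WT on CD (horizontal axis) and on ERTU (vertical axis) for 129 named genes that were tested, colored by the diets on which they were called. Most points lie near the dashed line of equal change, and Lcp2 and Kif14 are among those on opposite sides of 0 on the 2 diets.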

How the data were processed

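RNA from left ventricle was made into poly(A)-selected libraries (NEBNext Ultra II) and sequenced as paired ends. The authors aligned reads to mm10 with STAR 2.6.0c and counted uniquely aligned proper pairs over Ensembl genes with featureCounts of Subread 1.6.2, with the setting given as "same strand". The deposited values are raw counts per gene. A second deposited table of variance-stabilized values was not used. Symbols and positions came from GENCODE M21 (GRCm38), which matched 55190 of 55450 gene IDs (99.5%). Each library is 1 column of the count table, grouped by the genotype and diet in its name. The labels do not say whether libraries of a group shared a litter or cage, and p-values measure only the spread between these libraries.

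Tests used edgeR 4.0.16 in R 4.3.3 (TMM scaling, filterByExpr on the 4 groups, a quasi-likelihood fit of all 18 libraries with 1 mean per group). Genes left out held 0.0906% of the counts. Adjusted p-values are those of Benjamini and Hochberg over 16270 tested genes, and a gene was called under 0.05. Log2 CPM used a prior count of 2. Gnaq and total counts were compared by 2-sided exact permutation tests. The steps were tested on simulated data. Alternatives were size factors of DESeq2 1.42.0, its Wald test, voom of limma 3.58.1 with and without sample weights, other filters on low counts, only the 2 groups compared, and fits without 1 library.

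Named genes are a panel of 33 genes, the 10 largest rises and falls among called genes with non-overlapping groups and mean log2 CPM of at least 1, the 5 smallest p-values in each direction, up to 3 called members per direction of each of 36 pathway lists, and the 3 smallest interaction p-values. Further members of a list are named only to complete the set called or to give a close relative that was not called. Some genes that these rules chose are not reported here. The members and lists were chosen with earlier results of these data known.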

Additional observations from a re-analysis of the deposited data

Results flagged for a closer look

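Single libraries that stood far from the rest of their group on Dixon's ratio were looked for in 286 sets of values, and 20 were found, where chance gives about 1 in 20, or 14.3. WT ERTU 14 held 6 of them, WT ERTU 15 and Gαq ERTU 17 held 4 each, Gαq ERTU 16 held 3, and WT ERTU 13 and Gαq ERTU 18 held 0.

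In WT ERTU 14, the library with the highest atrial marker sum of its group, Efnb3 (71.8 CPM), Sdhc (553 CPM), Ckm (2012 CPM) and Slc25a11 (478 CPM) were low for the group, while Acat1 (979.5 CPM) and the summed fibroblast markers (5934 CPM) were high. In WT ERTU 15, Bdh1 was high (369.7 CPM), and Myh7 (1684 CPM), Gm40649 (0.258 CPM) and the total count (16075634) were low. In WT ERTU 11 Gm29040 was low (3.48 CPM), and in WT ERTU 12 Prr33 was low (3.73 CPM). In Gαq ERTU 17, Myh6 (43736 CPM), Casq1 (186 CPM) and the summed smooth muscle and pericyte markers (1389 CPM) were high and Rgs2 (15.4 CPM) was low. In Gαq ERTU 16, Nppa (21091 CPM) and Ifit2 (63.4 CPM) were high and Col4a3 (5.18 CPM) was low, and in Gαq ERTU 20 Slc25a11 was low (362 CPM).

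Themis2 differed between the diets in that each Gαq library was below each WT library on ERTU (log2 fold change -0.30) and above each on CD (0.30). It was the 1 gene of 16270 with this pattern, and the number that chance would give was not worked out. Its interaction p was 0.0018 before adjustment and it did not pass the test over all genes.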

How the results depend on the processing

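The comparison on ERTU called 1330 genes. The number was 1331 with the size factors of DESeq2, 1225 without a filter on low counts, 1267 with a filter at a mean CPM of 1, 1764 with the Wald test of DESeq2, 1251 in a fit of only the 2 groups and 1372 with voom without sample weights. Voom with sample quality weights gave 2755. These weights ran from 0.628 for Gαq ERTU 17 to 2.39 for Gαq ERTU 18, and the cause of the higher count was not tested beyond the 1372 calls without weights. Leaving out 1 library gave 946 to 1696 calls on ERTU and 788 to 1414 on CD, the latter with 788 without WT CD 1 and 851 without WT CD 2. Between 69.2% and 99.5% of the 1330 genes were called in each alternative, and each shared call kept its direction. The interaction gave 0 calls in each fit run. The Gnaq difference ran from 4.75 to 5.33 on the log2 scale without 1 library, with the smallest p these splits allow. Without 1 library Cd74 ran from -0.22 to 0.16. The difference in total counts, 331834 and not called, ran from -453410 to 935230 and turned negative without WT ERTU 15 or Gαq ERTU 20. Of the 107 called named genes, 91 were called in each fit without 1 library, 16 lost their call in at least 1, and 98 were called without WT ERTU 14 and Gαq ERTU 20. Over the alternatives run, 1 named gene changed sign, Cd74, which was not called. It was at -0.22 in voom with sample weights, and at -0.10, -0.03 and -0.22 without WT ERTU 11, WT ERTU 14 and Gαq ERTU 17. No paired analysis was possible because the library numbers run across the series and no number is shared between groups. Depth limits genes such as Edn3, Kif14 and Pmaip1, which had under 20 reads in some libraries.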

Other observations

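Long noncoding RNAs changed in a different balance from protein-coding genes. Of 1110 tested, 73 were called higher and 26 lower in Gαq ERTU, 8.92% in all. Of 13611 protein-coding genes tested, 544 were higher and 627 lower, 8.6% in all. The difference in balance was not tested, and several of these RNAs overlap other genes on the opposite strand, as Gm13054 does Nppa.

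The 36 pathway lists hold 786 of the tested genes. They contain 173 of the 1330 called genes, 36 higher and 137 lower, so 13.0% of the calls lie in a listed pathway. By chromosome the share of tested genes called ran from 6.95% on chromosome 19, which carries Gnaq, to 9.43% on chromosome 10.

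Across all promoters of called genes, the NRF1 core was found in 1.93% of those that rose and 3.73% of those that fell, against 3.44% of all promoters. The CRE was found in 1.58% and 2.80%, against 2.81%, and the CArG box in 1.93% and 0.776%, against 1.30%. Of the 15 promoters of the fetal and hypertrophy genes, 4 held a CArG box, those of Acta1 and Fhl1 and 2 of Fhl2. No test was made of these shares.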
